A study of Mus musculus with 18 samples.

Results

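The 36 genes described here encode parts of the lysosome and were taken from the count table by symbol. They comprise 12 proteases, 9 glycosidases, lipid hydrolases and their activators, 6 membrane proteins, 2 transcription factors and 7 subunits of the V-ATPase, the proton pump of the lysosomal membrane. All 36 were found in the deposited count table, and all 36 reached 1 CPM (a read count scaled to a common library total) in at least 3 of the 18 libraries. That filter left 14158 of 43280 gene symbols for testing. Messenger RNA had been sequenced from cultured macrophages, phagocytes raised from the bone marrow of C57BL/6J mice, of genotype Wildtype. The mice belonged to 3 in vivo arms labelled PBS (the vehicle), 1xLPS and 4xLPS, where LPS is lipopolysaccharide, a product of the bacterial cell wall. The cultured cells received no stimulation in vitro (NO) or LPS in vitro (LPS), which gave 6 groups of 3 libraries: PBS_NO, 1xLPS_NO, 4xLPS_NO, PBS_LPS, 1xLPS_LPS and 4xLPS_LPS. The sources used here give no LPS dose or time, no age or sex of the mice, and no word on whether marrow was pooled. Nor is it stated that each of the 3 libraries in a group had a mouse of its own. The p-values therefore cover the variation among 3 libraries and possibly nothing beyond technical error.

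The arms were read from the sample titles, which match the column names of the count table. The treatment tag of 12 of the 18 samples names another arm than the title. It does so by exchanging PBS with 4xLPS. If columns were matched to samples by title and those tags were followed, the PBS and 4xLPS values below would change places. When each column is matched instead to the sample whose number it carries, the tag names the arm of the column in 18 of 18 cases. The values below would then stay in their arms.

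Lysosomes are acidic organelles in which macrophages break down what they engulf, together with worn parts of the cell itself. The V-ATPase pumps protons into the lumen, and most of the hydrolases work only at that low pH. Cathepsins cut proteins, glycosidases and lipases dismantle sugar chains and lipids, and heavily glycosylated membrane proteins line the inside of the membrane. TFEB and TFE3, members of the MiT family with MITF and TFEC, are known to switch on many of these genes through a short DNA motif with the E-box core CACGTG.

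Total counts ran from 9296453 to 54050622 per library. A principal component of log2 CPM that held 14.4% of the variance set 2 libraries apart, 1xLPS_NO library 1 and 1xLPS_LPS library 3. Macrophage markers were present throughout (8 of 8 past the filter, 4480 to 11000 CPM summed, including Emr1, the older symbol of the F4/80 gene). Markers of B cells, T and NK cells and erythroid cells stayed at or below 1.11 CPM summed, and those of mast cells and basophils at or below 3.85 CPM. Neutrophil markers (7 of 8 past the filter) summed to 49.1 to 165 CPM and dendritic cell markers (2 of 6) to 33.4 to 62.2 CPM, and their part in the results was not tested. Stromal markers (9 of 10 past the filter) summed to 1680 to 2140 CPM in PBS_NO. The sum was 2490 to 3610 CPM in 1xLPS_NO and 3490 to 3890 in 4xLPS_NO.

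Promoter sequences were taken from RefSeq (build GRCm38.p6) as windows of 300 bases, from 250 before to 50 after a transcript start. They were matched for 30 of the 36 genes, with 36 windows. The core CACGTG, a palindrome that reads the same on both strands, lay in a window of 12 of these 30 genes (40.0%), against 8.09% of all 27025 genes with a window and 11.9% of the 9233 tested genes with one. The longer form TCACGTGA, which contains the core, was found in 6 of the 30 genes (20.0%), against 1.12% of all and 2.26% of the tested genes. The genes with a core were Atp6v0d1, Atp6v0e, Atp6v1a, Ctsa, Ctsd, Ctsf, Ctsl, Gaa, Glb1, Lamp1, Lgmn and Mcoln1. The genes with no matched window were Asah1, Atp6v0d2, Atp6v1b2, Atp6v1h, Ctsb and Ctsh. A match describes letters in a window and shows neither binding nor use of the site. The windows below show the densest set of cores (Lamp1, with 4), a channel gene with 2 (Mcoln1), and the most abundant member (Ctsd, with 2). They also show Ctsl and Scarb2, the pair with the lowest log2 fold changes after LPS in the PBS arm. Ctsl has a core far from the transcript start used for its window, and Scarb2 has none. Cores are in capitals.
Lamp1 (chr8:13158911-13159210, plus strand): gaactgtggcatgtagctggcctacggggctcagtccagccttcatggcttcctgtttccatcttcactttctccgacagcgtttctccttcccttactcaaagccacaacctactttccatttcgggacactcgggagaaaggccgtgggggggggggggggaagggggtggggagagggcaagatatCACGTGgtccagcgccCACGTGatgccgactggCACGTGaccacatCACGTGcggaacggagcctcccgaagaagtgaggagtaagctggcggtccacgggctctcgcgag
Mcoln1 (chr8:3500269-3500568, plus strand): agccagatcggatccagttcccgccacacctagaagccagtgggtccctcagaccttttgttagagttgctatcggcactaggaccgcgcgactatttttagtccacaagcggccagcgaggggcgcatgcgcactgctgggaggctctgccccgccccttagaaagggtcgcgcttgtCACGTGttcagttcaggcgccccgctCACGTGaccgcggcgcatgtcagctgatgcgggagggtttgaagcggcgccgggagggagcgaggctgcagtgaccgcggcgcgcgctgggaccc
Ctsd (chr7:142387778-142388077, minus strand): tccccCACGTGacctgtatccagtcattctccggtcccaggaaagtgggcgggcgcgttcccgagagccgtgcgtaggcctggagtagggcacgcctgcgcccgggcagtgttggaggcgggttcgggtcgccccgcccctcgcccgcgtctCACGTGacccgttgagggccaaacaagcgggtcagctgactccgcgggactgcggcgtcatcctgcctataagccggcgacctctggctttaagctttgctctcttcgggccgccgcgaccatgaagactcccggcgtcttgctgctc
Ctsl (chr13:64370471-64370770, minus strand): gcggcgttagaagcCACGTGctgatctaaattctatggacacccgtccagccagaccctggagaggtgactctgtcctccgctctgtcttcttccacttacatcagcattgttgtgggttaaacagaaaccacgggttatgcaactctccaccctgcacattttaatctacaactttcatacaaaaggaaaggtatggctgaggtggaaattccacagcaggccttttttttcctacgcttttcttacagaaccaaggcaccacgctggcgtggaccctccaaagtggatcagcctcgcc
Scarb2 (chr5:92505608-92505907, minus strand): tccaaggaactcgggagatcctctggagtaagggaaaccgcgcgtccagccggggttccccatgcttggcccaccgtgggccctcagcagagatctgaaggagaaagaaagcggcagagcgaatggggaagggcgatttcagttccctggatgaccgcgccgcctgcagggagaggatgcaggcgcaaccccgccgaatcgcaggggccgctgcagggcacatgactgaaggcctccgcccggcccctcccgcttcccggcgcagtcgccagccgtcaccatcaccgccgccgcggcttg
In Lamp1 the cores began at positions -61, -45, -28 and -15 from the start, in Mcoln1 at -71 and -45, in Ctsd at -245 and -98, and in Ctsl at -236. These positions count from the transcript start used for each window. The Scarb2 and Ctsl windows lie inside the annotated genes, which reach 92506833 and 64370890, so the outermost annotated starts are not covered. For Ctsd and Mcoln1 the outermost annotated starts, 142388038 and 3500457, lie within the window but upstream of the start used.

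Lysosomal transcripts were abundant in every group. The 36 genes summed to between 51188 CPM (4xLPS_LPS library 1) and 90399 CPM (1xLPS_LPS library 3) on the TMM scale, which adjusts library totals by the trimmed mean of M values, or 5.12% to 9.04% of the scaled counts. Ctsb, Ctsd and Psap together made up 57.6% to 63.3% of that sum. Compared per length, in CPM per kilobase of transcript in PBS_NO (mean ± SD, n = 3), Ctsd was highest at 7593 ± 1270. Psap followed at 5276 ± 446, and Ctss (3647 ± 404) and Ctsb (3285 ± 396) came next without differing beyond their spread. Cd68 (1451 ± 157) and Grn (1412 ± 252) overlapped in the same way, followed by Ctsz at 1104 ± 179 and Lamp1 at 1001 ± 127. At the other end lay Tfeb (37.7 ± 5.90), Scarb2 (36.4 ± 1.53), Ctsk (33.2 ± 4.77) and Ctsf (6.08 ± 1.14). Tfeb, Scarb2 and Ctsk were within their spread of each other. The length used is that of 1 annotated transcript per gene, so a gene that uses a shorter or longer form is misplaced in this order.

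On average the summed level was lower after LPS in vitro. It was 75479 ± 7936 CPM in PBS_NO and 64951 ± 2828 in PBS_LPS (SD, n = 3). In the 4xLPS arm it was 72332 ± 2958 unstimulated and 52432 ± 1376 stimulated, and the stimulated libraries lay below every unstimulated library of any arm. The 1xLPS arm had 74647 ± 7593 and 67375 ± 20320. The wide spread of 1xLPS_LPS came from library 3, at 90399 CPM against 51953 and 59772 in libraries 1 and 2. That library was the highest of its group for 33 of the 36 genes, with a median ratio of 1.47 to the mean of the other libraries, while over all tested genes it was highest for 38.4% with a median ratio of 0.959. In bulk RNA, fewer cells of a type and less RNA per cell cannot be told apart.

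**Figure D1:**
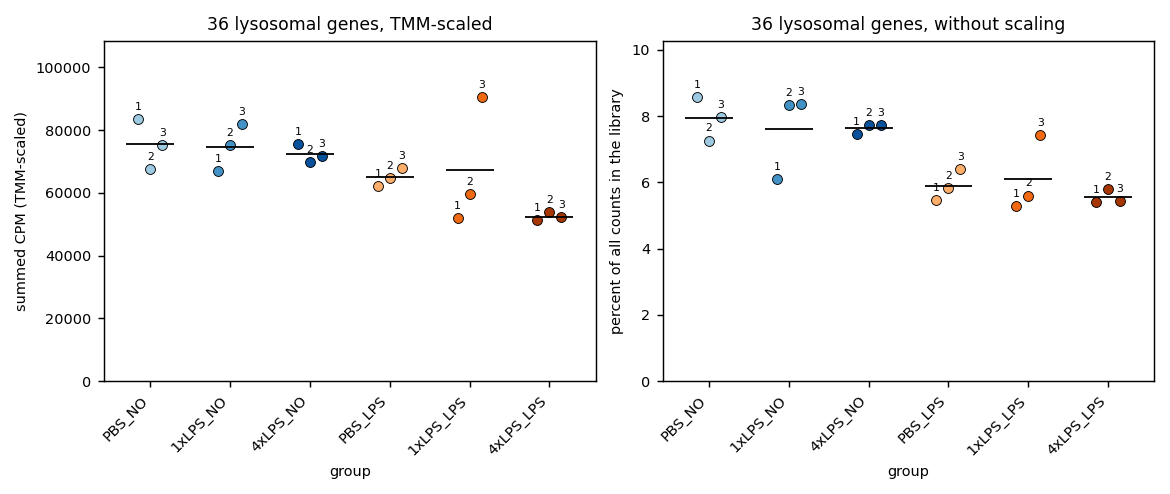
Summed level of the 36 lysosomal genes in each library (points, numbered by library) with the group mean (line), as TMM-scaled CPM on the left and as percent of all counts without scaling on the right. On the TMM scale 1xLPS_LPS library 3 stood at 90399 CPM, above every other library, and the 4xLPS_LPS libraries lay between 51188 and 53909 CPM. Without scaling 1xLPS_LPS library 3 held 7.43%, below the 8.56% of PBS_NO library 1.

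The first set of comparisons asked how LPS in vitro changed these genes in each arm. A gene was called where edgeR's quasi-likelihood test gave a Benjamini-Hochberg adjusted p under 0.05 over all 14158 genes. Fold changes below are log2 fold changes ± SE from that test, with positions from the GENCODE M21 annotation of GRCm38. In the PBS arm 3 of the 36 genes rose (Ctsc, Tfe3 and Ctsz) and 5 fell (Scarb2, Ctsl, Neu1, Lgmn and Atp6v0e). That is 22.2% of the genes, near the 25.3% of all tested genes called. The 1xLPS arm had 1 that rose (Ctsc) and 4 that fell (Lgmn, Neu1, Gaa and Scarb2), 13.9% against 22.8% of all genes. For the 4xLPS arm none rose and 9 fell (Ctsl, Ctsd, Scarb2, Grn, Lgmn, Neu1, Gaa, Tpp1 and Glb1), 25.0% against 18.9% of all genes, of which 8.29% fell. The median log2 fold change of the 36 genes was -0.19, -0.14 and -0.36 in the PBS, 1xLPS and 4xLPS arms, and that of all tested genes was -0.02, 0.00 and 0.05. The genes called in every arm were Lgmn, Neu1 and Scarb2. 10 genes fell in at least 1 arm, 3 rose, and 23 were called in none.

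These counts depended on scaling and on single libraries. With library totals alone in place of TMM, 2 rose and 15 fell in the PBS arm and none rose and 11 fell in the 1xLPS arm. That is 47.2% and 30.6% of the 36 genes, against 28.0% and 23.7% of all genes under the same scaling. The medians of the PBS arm then became -0.41 for the 36 genes and -0.23 for all genes. Scaling moves all genes by nearly the same amount, so the distance between these medians could hardly change. Without 1xLPS_LPS library 3, whose spread enters every comparison through the shared fit, 3 rose and 12 fell in the PBS arm, 1 rose and 12 fell in the 1xLPS arm, and 1 rose and 18 fell in the 4xLPS arm. The share of the 36 was then 41.7%, 36.1% and 52.8%, and that of all genes 28.8%, 27.8% and 21.8%. Leaving out PBS_NO library 2 or 3 left 4 and 5 calls in the PBS arm. No call was left in the 1xLPS arm without 1xLPS_NO library 3 or 1xLPS_LPS library 2, 1 without 1xLPS_LPS library 1, and 3 without 4xLPS_NO library 3 or 4xLPS_LPS library 2. The 4xLPS arm kept 3 calls without 4xLPS_NO library 1, 4xLPS_LPS library 1 or 4xLPS_LPS library 3, and 5 without 4xLPS_LPS library 2. Calls on Ctsl and Scarb2 in the PBS and 4xLPS arms, and on Ctsc and Tfe3 in the PBS arm, held in all 18 fits that left out a library and in the other 7 alternatives tried.

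**Figure D2:**
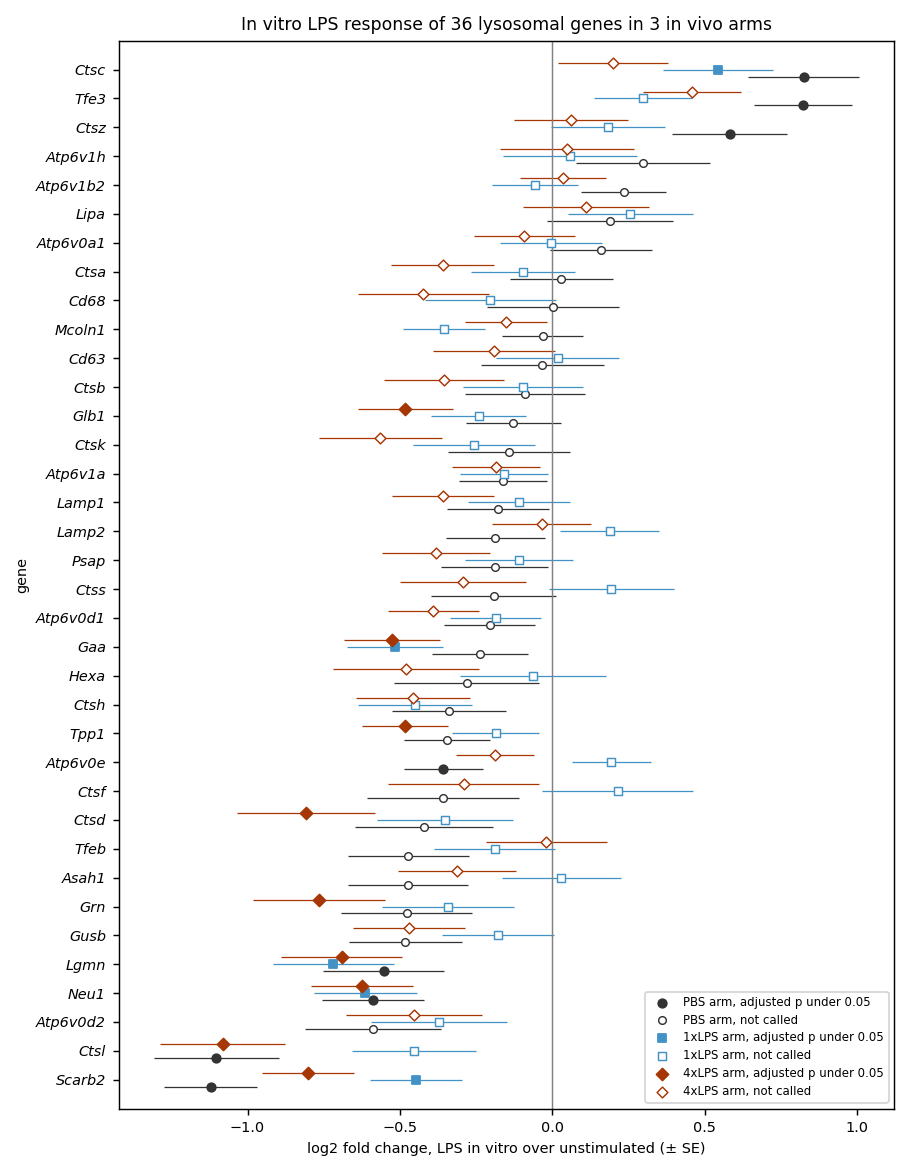
Log2 fold change of LPS-stimulated over unstimulated macrophages (x axis, ± SE) for each of the 36 lysosomal genes (y axis) in the PBS arm (circles), 1xLPS arm (squares) and 4xLPS arm (diamonds), filled where the adjusted p was under 0.05. Scarb2 and Ctsl lie at the low end, with -1.12 and -1.10 in the PBS arm, and Ctsc and Tfe3 at the high end, both with 0.82.

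Among the proteases, the cysteine protease Ctsl, an endopeptidase of the lumen (chromosome 13, 64359337 to 64370890), fell in the PBS and 4xLPS arms. Its CPM in libraries 1, 2 and 3 was 3381, 3543 and 3882 in PBS_NO and 1926, 1433 and 1674 in PBS_LPS. In the 4xLPS arm it was 3546, 3602 and 3794 unstimulated and 1505, 1767 and 1896 stimulated. Every stimulated library of these arms was below every unstimulated one (-1.10 ± 0.20, adjusted p = 0.0005 in the PBS arm, -1.08 ± 0.20, adjusted p = 0.00082 in the 4xLPS arm). Ctsl values in the 1xLPS arm were 3062, 2857 and 2656 against 1534, 1761 and 2968, and library 3 overlapped the unstimulated group. There the gene was not called (-0.45 ± 0.20, adjusted p = 0.12). On library totals alone edgeR called it as fallen in this arm (adjusted p = 0.012), as it did without 1xLPS_LPS library 3 (-0.81, 0.0012).

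Lgmn encodes legumain, the asparaginyl endopeptidase that processes other cathepsins (chromosome 12, 102394084 to 102439813). It stood at 1098, 992 and 959.6 CPM in PBS_NO and 624, 689 and 765 in PBS_LPS, at 760.3, 1218 and 1281 in 1xLPS_NO and 512, 617 and 852 in 1xLPS_LPS, and at 1016, 925 and 932 in 4xLPS_NO and 592, 640.0 and 548 in 4xLPS_LPS. The groups overlapped only in the 1xLPS arm. It fell in all arms (-0.55 ± 0.20, adjusted p = 0.048, -0.72 ± 0.20, adjusted p = 0.014 and -0.69 ± 0.20, adjusted p = 0.019 in the PBS, 1xLPS and 4xLPS arms). The PBS call was near the threshold and held in 6 of the 18 fits with a library left out (adjusted p up to 0.14), while the other calls held in 15 of 18 each. They were lost without 1xLPS_NO library 3 (0.074), 1xLPS_LPS library 1 (0.07) or 2 (0.057), and without 4xLPS_NO library 1 (0.067), 4xLPS_LPS library 1 (0.06) or 3 (0.079).

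Ctsd, the aspartic protease cathepsin D (chromosome 7, 142375911 to 142388038), fell in the 4xLPS arm. It was at 16375, 15234 and 16199 CPM unstimulated and 8869, 9577 and 8876 stimulated, with no overlap (-0.81 ± 0.23, adjusted p = 0.016). The call was lost without 4xLPS_LPS library 1 (adjusted p = 0.06) or 3 (0.059). In the PBS arm the values were 19008.5, 13662 and 15779 against 11106.5, 12089 and 12993, also without overlap but with a wide unstimulated spread (-0.42 ± 0.23, adjusted p = 0.18). Values of the 1xLPS arm were 15348, 14734 and 18831 against 9299, 10019 and 19011. There library 3 alone was as high as the unstimulated cells (-0.35 ± 0.22, adjusted p = 0.28). With library totals alone edgeR called Ctsd as fallen in the PBS (adjusted p = 0.017) and 1xLPS arms (0.049). Without 1xLPS_LPS library 3 it was also called in both (-0.41, 0.04 and -0.77, 0.002). Tpp1, the tripeptidyl peptidase lost in one form of neuronal ceroid lipofuscinosis (chromosome 7, 105744811 to 105752235), fell in the 4xLPS arm from 485, 432 and 421 to 319, 327 and 311 CPM, again without overlap (-0.48 ± 0.14, adjusted p = 0.022). It was not called without 4xLPS_NO library 1 (0.097), 4xLPS_LPS library 1 (0.066) or 3 (0.077). In the PBS arm Tpp1 had 502, 445 and 418 against 365, 334 and 374 CPM (-0.35 ± 0.14, adjusted p = 0.082). The 1xLPS arm had 461, 392 and 390.5 against 320.3, 340.1 and 433 (-0.19 ± 0.14, adjusted p = 0.37). By edgeR on library totals Tpp1 was called as fallen in both arms (adjusted p = 0.0013 and 0.047). It was called in the PBS arm without 1xLPS_LPS library 3 too (0.047). Exons of Ctsl, Ctsd and Glb1 overlap other annotated genes on the same strand. Those of Ctsa, Ctsb, Ctsz, Grn, Hexa, Lamp1 and Atp6v1h overlap a neighbour on the opposite strand. The sources used here name neither the counting program nor its strand setting, so reads in these stretches are uncertain.

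The proteases that rose were exopeptidases. Ctsc, the dipeptidyl peptidase that activates granule serine proteases (chromosome 7, 88278085 to 88310888), went from 135, 149 and 133 CPM in PBS_NO to 300.3, 219.5 and 217 in PBS_LPS (0.82 ± 0.18, adjusted p = 0.0023). Ctsc in the 1xLPS arm went from 119, 143 and 105 to 149, 227 and 159.7 (0.54 ± 0.18, adjusted p = 0.038), with groups that did not overlap in either arm. The 1xLPS call held in 13 of 18 fits. It ended on removal of 1xLPS_LPS library 2 (adjusted p = 0.23), 1xLPS_NO library 1 (0.073) or 3 (0.14), 4xLPS_NO library 3 (0.05) or 4xLPS_LPS library 2 (0.05). Ctsc in the 4xLPS arm stood at 180.4, 144 and 156 unstimulated and 200.3, 192 and 159 stimulated, and the groups overlapped (0.20 ± 0.18, adjusted p = 0.49). Ctsz, the carboxypeptidase cathepsin Z (chromosome 2, 174427493 to 174439039), rose in the PBS arm from 1838, 1324 and 1611 to 2246, 2242 and 2655 CPM, without overlap (0.58 ± 0.19, adjusted p = 0.03). It was not called without PBS_NO library 2 (0.14) or 3 (0.069), without PBS_LPS library 3 (0.13), or on library totals alone (0.069). The other arms showed 2163, 1669 and 2181 against 1777, 2077 and 2965 and 1713, 1476 and 1497 against 1699.9, 1639.8 and 1548, with overlapping groups (0.18 ± 0.19, adjusted p = 0.52 and 0.06 ± 0.19, adjusted p = 0.85 in the 1xLPS and 4xLPS arms).

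The remaining 6 proteases were not called in any arm by the main edgeR fit. In the 4xLPS arm DESeq2 called Ctsk (-0.62, adjusted p = 0.02) and Ctsh (-0.51, 0.048) as fallen. With only the groups compared, edgeR also called Ctsa (adjusted p = 0.014), Ctsb (0.0097) and Ctss (0.039) as fallen there. Ctsb, a cysteine protease and one of the most abundant messages, ranged over group means from 11497 to 15789 CPM. Ctss, which trims the invariant chain for antigen presentation, ranged from 3523 to 4942 CPM. Ctsa, the carboxypeptidase that protects the enzymes encoded by Glb1 and Neu1, ranged from 1266 to 1754 CPM. The aminopeptidase Ctsh ranged from 147 to 239 CPM and the cysteine protease Ctsf from 9.41 to 15.2 CPM. Ctsk, the collagenase of osteoclasts, ranged from 36.8 to 58.0 CPM. Osteoclast markers (6 of 8 past the filter) summed to between 115 and 226 CPM in single libraries, with Oscar and Calcr at or below 0.819 CPM. Their part in the Ctsk level was not tested.

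Among the glycosidases, Neu1, the sialidase that removes terminal sialic acids (chromosome 17, 34931253 to 34935953), fell in every arm. Its CPM was 245, 272 and 208 in PBS_NO and 156, 176 and 150.2 in PBS_LPS (-0.59 ± 0.17, adjusted p = 0.015). In the 1xLPS arm it was 268, 174 and 250.5 against 139.7, 142 and 171 (-0.61 ± 0.17, adjusted p = 0.013), and in the 4xLPS arm 233, 195 and 188 against 135, 119 and 145 (-0.63 ± 0.17, adjusted p = 0.013). The stimulated and unstimulated groups did not overlap in any arm. The calls held in 16, 15 and 16 of the 18 fits with a library left out, and otherwise the adjusted p lay between 0.051 (without PBS_LPS library 3) and 0.075 (without PBS_NO library 2). The other libraries whose removal ended a call were 1xLPS_NO library 3 (0.054), 1xLPS_LPS libraries 1 (0.053) and 2 (0.056), 4xLPS_NO library 1 (0.072) and 4xLPS_LPS library 2 (0.057).

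Gaa, the acid alpha-glucosidase that degrades glycogen (chromosome 11, 119267887 to 119285454), fell in the LPS-exposed arms. It was at 329.7, 283 and 385 CPM in 1xLPS_NO and 207, 231 and 259 in 1xLPS_LPS (-0.52 ± 0.16, adjusted p = 0.024), and at 304, 280.1 and 268 in 4xLPS_NO and 204, 188 and 199 in 4xLPS_LPS (-0.53 ± 0.16, adjusted p = 0.023), with no overlap. The call in the 1xLPS arm did not hold without 1xLPS_LPS library 1 (adjusted p = 0.095) or 2 (0.068) or 1xLPS_NO library 3 (0.12). In the 4xLPS arm the adjusted p was 0.09 and 0.055 without 4xLPS_NO library 1 and 2, and 0.056, 0.078 and 0.064 without 4xLPS_LPS library 1, 2 and 3, which ended the call. The PBS groups, 302, 249.7 and 281 and 197, 284 and 227, overlapped (-0.24 ± 0.16, adjusted p = 0.29). On library totals alone edgeR called Gaa as fallen in the PBS arm too (-0.45, adjusted p = 0.025). Glb1, the beta-galactosidase that splits galactose from GM1 ganglioside (chromosome 9, 114401076 to 114474898), fell in the 4xLPS arm from 128, 112 and 114 to 89.9, 80.9 and 82.3 CPM, without overlap (-0.48 ± 0.15, adjusted p = 0.035). That call held in 12 of 18 fits and was lost without any 1 of the 6 libraries of the arm (adjusted p 0.06 to 0.13). Glb1 values were 131, 98.0 and 106 and 92.1, 101 and 113 in the PBS groups, which overlapped (-0.13 ± 0.15, adjusted p = 0.58). The 1xLPS groups, 94.7, 106 and 126 and 83.1, 82.2 and 110.1, overlapped too (-0.24 ± 0.15, adjusted p = 0.28). Without both libraries that stood apart, edgeR called Glb1 as fallen in the 1xLPS arm (-0.49, adjusted p = 0.021).

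Grn encodes progranulin, which lysosomal proteases cut into granulins (chromosome 11, 102430315 to 102437048). It fell in the 4xLPS arm from 3859.6, 3093 and 3237 to 2039.6, 1948 and 2003 CPM, with no overlap (-0.77 ± 0.22, adjusted p = 0.017). Removal of 4xLPS_NO library 1 (adjusted p = 0.079), or of 4xLPS_LPS library 1 (0.051), 2 (0.055) or 3 (0.054), ended the call. In the PBS arm it had 3951, 2795 and 3169 against 2465, 2069 and 2584 CPM (-0.48 ± 0.21, adjusted p = 0.11). The 1xLPS arm had 3401, 2867 and 4048 against 1995, 2341 and 3799 (-0.34 ± 0.21, adjusted p = 0.27), where library 3 overlapped the unstimulated cells. On library totals edgeR called Grn as fallen in the PBS (adjusted p = 0.006) and 1xLPS arms (0.043). Without 1xLPS_LPS library 3 it was also called in both (0.036 and 0.01). The other 5 genes of this group were not called in any arm by the main edgeR fit. Gusb was called in the PBS arm with the replicate number as a block (-0.49, adjusted p = 0.048) and by DESeq2 (0.043). DESeq2 also called it in the 4xLPS arm (-0.52, 0.028), and without 1xLPS_LPS library 3 edgeR called it in all 3 arms (0.01, 0.018 and 0.0078). In the 4xLPS arm DESeq2 called Psap as fallen too (-0.43, adjusted p = 0.042). With only the groups compared, edgeR called Hexa (-0.53, adjusted p = 0.0028) and Asah1 (-0.36, 0.028) as fallen there. Psap, the precursor of the saposins that present lipids to hydrolases, ranged over group means from 10358 to 14019 CPM. Lipa, the acid lipase that frees cholesterol from its esters, ranged from 1887 to 2485 CPM. Hexa, a beta-hexosaminidase subunit, ranged from 858 to 1389 CPM, Gusb, the beta-glucuronidase, from 471 to 776 CPM, and Asah1, the acid ceramidase, from 230 to 319.7 CPM.

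Of the membrane proteins, Scarb2 was the one called. It encodes LIMP-2, which carries beta-glucocerebrosidase to the lysosome (chromosome 5, 92441314 to 92506833). Its CPM was 179, 167 and 167 in PBS_NO and 82.7, 79.5 and 73.8 in PBS_LPS. In the 4xLPS arm it was 132, 160.4 and 153 against 77.6, 89.9 and 88.4. It fell in both (-1.12 ± 0.15, adjusted p = 2e-05 and -0.80 ± 0.15, adjusted p = 0.00084), without overlap. In the 1xLPS arm it fell from 89.4, 142 and 114 to 78.8, 82.0 and 92.9 (-0.45 ± 0.15, adjusted p = 0.041), with 1xLPS_NO library 1 inside the stimulated range. The 1xLPS call held in 5 of 18 fits with a library left out, with an adjusted p of up to 0.16 (without 1xLPS_NO library 2) in the rest. Lamp1 and Lamp2, the main glycoproteins of the lysosomal membrane, ranged over group means from 1704 to 2232 and from 273 to 373 CPM and were not called in any arm. The same held for the tetraspanin Cd63 (399 to 505 CPM), which has a near-identical pseudogene copy, for the macrophage scavenger protein Cd68 (1057 to 1728 CPM) and for Mcoln1, a calcium channel of the lysosome (86.7 to 111 CPM). With only the groups compared, edgeR called Lamp1 (adjusted p = 0.012) and Cd68 (0.013) as fallen in the 4xLPS arm. DESeq2 called Mcoln1 as fallen in the 1xLPS arm (0.02). Lamp2 was called as risen there by edgeR without 1xLPS_NO library 2 (0.034).

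Of the transcription factors, Tfe3 was called and Tfeb was not. Tfe3 (chromosome X, 7762560 to 7775202) rose in the PBS arm from 160.3, 146 and 159 to 230.3, 271 and 319.8 CPM, without overlap (0.82 ± 0.16, adjusted p = 0.00083). In the 4xLPS arm it was at 150.1, 147 and 148 and 224, 195 and 193, also without overlap but short of the threshold (0.46 ± 0.16, adjusted p = 0.054). It passed there with the replicate number as a block (adjusted p = 0.043), with only the groups compared (0.0077) and without both libraries that stood apart (0.031). The 1xLPS groups, 196, 179 and 240.0 and 211, 239 and 306, overlapped (0.30 ± 0.16, adjusted p = 0.19). Tfeb (chromosome 17, 47737030 to 47792419) was not called, with 86.6 ± 13.6 CPM in PBS_NO and 62.4 ± 1.41 in PBS_LPS (SD, n = 3, -0.47 ± 0.20, adjusted p = 0.091) and fold changes of -0.19 and -0.02 in the 1xLPS and 4xLPS arms. With only the groups compared, edgeR called it as fallen in the PBS arm (-0.48, adjusted p = 0.019).

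Of the V-ATPase subunits, 1 of 7 was called. Atp6v0e, a small subunit of the membrane sector (chromosome 17, 26663231 to 26699647), fell in the PBS arm from 255, 229 and 258 to 222, 172 and 185 CPM, without overlap (-0.36 ± 0.13, adjusted p = 0.049). This call held in 5 of 18 fits with a library left out (adjusted p up to 0.19, without PBS_LPS library 2) and not with the replicate number as a block (0.055). Its values were 172, 178 and 152 and 189.9, 189 and 195 in the 1xLPS groups, where the fold change had the other sign (0.19 ± 0.13, adjusted p = 0.3), and 226, 201 and 211 and 177, 181 and 202 in the 4xLPS groups (-0.19 ± 0.13, adjusted p = 0.34). The other 6 subunits were not called in any arm by the main edgeR fit. DESeq2 called Atp6v0d1 as fallen in the 4xLPS arm (-0.44, adjusted p = 0.02). In the PBS arm it called Atp6v0d2 as fallen (-0.58, adjusted p = 0.048). In the membrane sector Atp6v0a1 ranged over group means from 356 to 463 CPM, Atp6v0d1 from 236 to 329.6 CPM, and Atp6v0d2, an isoform typical of osteoclasts, from 114 to 171 CPM. In the ATP-hydrolysing sector Atp6v1a ranged from 514 to 686 CPM, Atp6v1b2 from 514 to 673 CPM and Atp6v1h from 122 to 158 CPM.

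**Figure D3:**
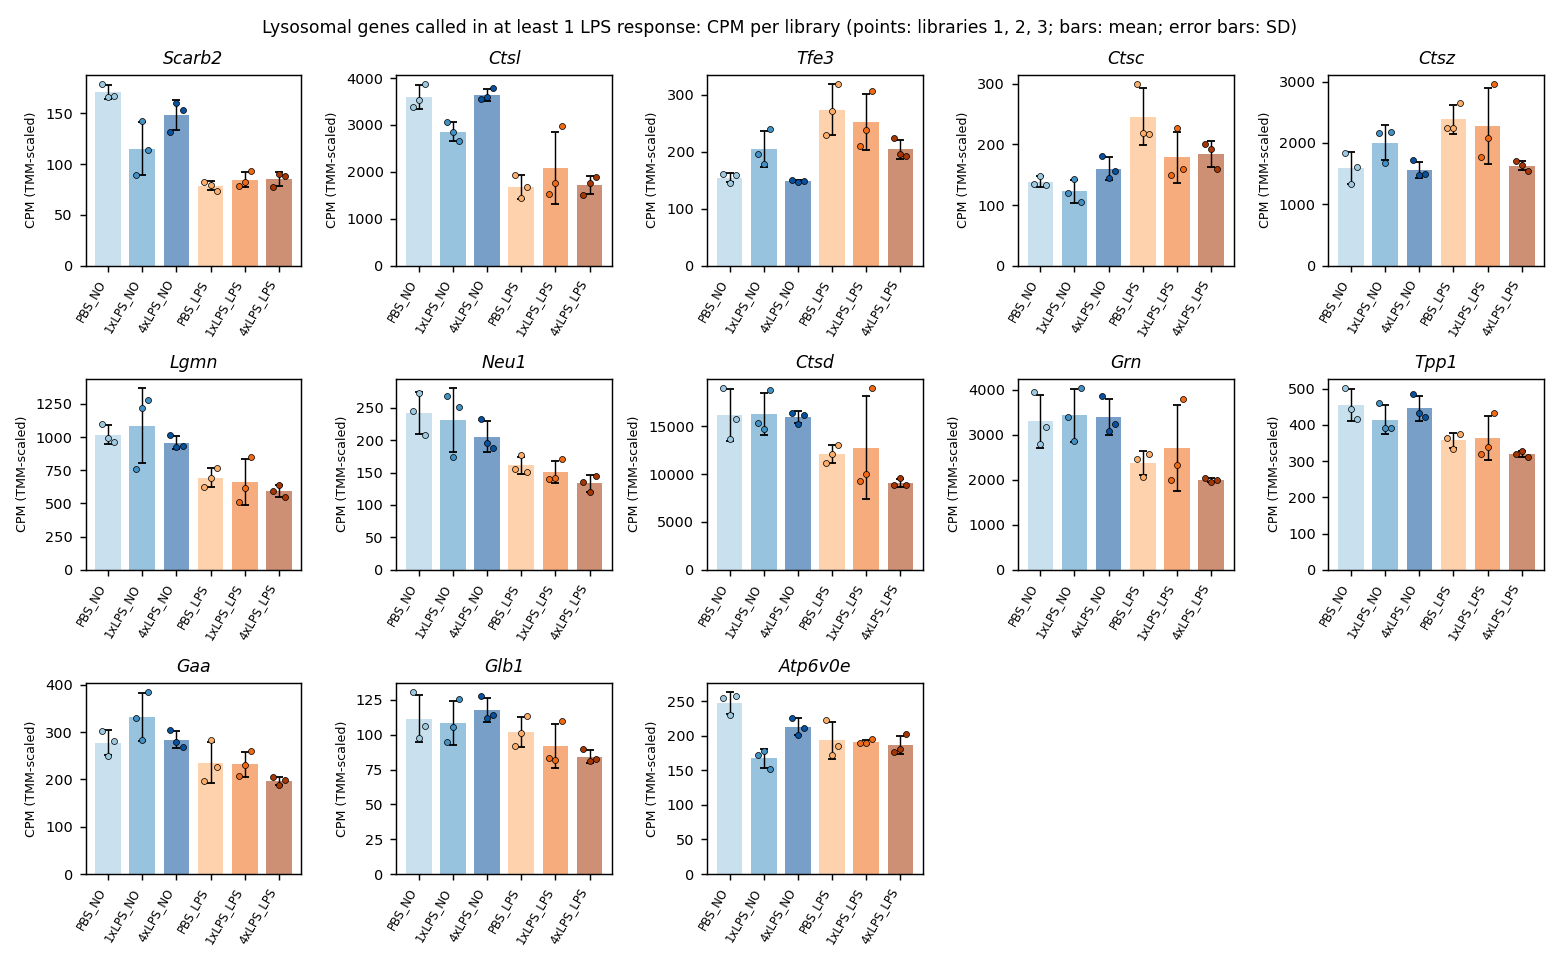
TMM-scaled CPM (y axis, from 0) of the 13 lysosomal genes called in at least 1 LPS response, by group (x axis), with 1 point per library, bars at the group mean and error bars of 1 SD. Ctsl and Scarb2 were lower in each stimulated PBS and 4xLPS library than in each unstimulated one, and 1xLPS_LPS library 3 was the highest of its group for most panels, with 19011 CPM for Ctsd.

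Genes with and without the E-box core were set side by side. Of the 12 genes with a core, none rose in any arm and 3, 2 and 5 fell in the PBS, 1xLPS and 4xLPS arms, with median log2 fold changes of -0.22, -0.21 and -0.38. Of the 18 matched genes with none, 3, 1 and 0 rose and 2, 2 and 4 fell, with medians of -0.19, -0.09 and -0.34. Of all tested genes 14.0%, 12.0% and 10.6% rose and 11.3%, 10.8% and 8.29% fell. Sets of 12 and 18 genes are small, and the difference between them was not tested. Ctsl, with its core at -236, fell by 1.10 on the log2 scale in the PBS arm, and Scarb2, whose window holds no core, fell by 1.12. Lamp1 and Mcoln1, with 4 and 2 cores, had -0.18 and -0.03 there and were not called. These genes were chosen with their values known, and a link between core and response was not tested.

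The difference in LPS response between arms was then tested directly. None of the 36 genes was called in any of the 3 contrasts by edgeR or by DESeq2, and over all genes the share called by edgeR was 0.0%. At an unadjusted p under 0.05 there were 4 genes for 1xLPS minus PBS, 1 for 4xLPS minus PBS and 2 for 4xLPS minus 1xLPS (11.1%, 2.78% and 5.56%, against 8.15%, 5.67% and 2.12% of all genes). For Scarb2 the response in the 1xLPS arm minus that in the PBS arm was 0.67 ± 0.21 (SE, adjusted p = 0.42), and for Ctsl it was 0.65 ± 0.29 (adjusted p = 0.59). For Ctsc the 4xLPS minus PBS difference was -0.63 ± 0.26 (adjusted p = 0.81). The unequal lists of called genes in the arms above were therefore not shown to differ.

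The second set of comparisons asked whether the in vivo arm changed these genes in cells of the same in vitro condition. These comparisons share control groups with each other and with the LPS responses. Without stimulation, none of the 36 genes was called by edgeR in any of the 3 comparisons (share of all genes called 0.0%). At an unadjusted p under 0.05 there were 4 genes for 1xLPS against PBS, 0 for 4xLPS against PBS and 5 for 4xLPS against 1xLPS. These are 11.1%, 0.0% and 13.9% of the 36, against 11.8%, 6.0% and 9.55% of all genes. DESeq2 called 1, 0 and 0, the 1 being Atp6v0e, lower in 1xLPS_NO. Its values, 255, 229 and 258 CPM in PBS_NO, then 172, 178 and 152 CPM in 1xLPS_NO and 226, 201 and 211 CPM in 4xLPS_NO, did not overlap between 1xLPS_NO and either other group (1xLPS against PBS -0.57 ± 0.13 SE, adjusted p = 0.35 by edgeR's quasi-likelihood test). Scarb2 had -0.57 ± 0.15 and Lamp2 -0.45 ± 0.16 in the same comparison (adjusted p = 0.35 and 0.36). Without 1xLPS_NO library 2 these 3 genes were called for 1xLPS against PBS, and Lamp2, Scarb2 and Tfeb for 4xLPS against 1xLPS. The lowest Scarb2 value of 1xLPS_NO, 89.4 CPM, was in library 1, which stood apart in the principal component analysis. The median log2 fold change of the 36 genes was 0.01 in 1xLPS_NO against PBS_NO, as over all genes (0.01), and -0.08 against -0.03 over all genes in 4xLPS_NO against PBS_NO.

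After LPS in vitro, again none of the 36 genes was called between arms by edgeR's quasi-likelihood test or by DESeq2. At an unadjusted p under 0.05 there were 3 for 1xLPS against PBS, 6 for 4xLPS against PBS and 7 for 4xLPS against 1xLPS (8.33%, 16.7% and 19.4%, against 7.66%, 13.9% and 5.99% of all genes). Over all genes the share called was 0.0777% for 4xLPS against PBS and 0.0% for the others. In 4xLPS_LPS against PBS_LPS, however, 21 of the 36 genes were lower in every 4xLPS library than in every PBS library and 1 (Tfeb) was higher, against 14.0% of all tested genes lower and 14.8% higher. The median of the 36 was -0.27, and that of all genes 0.02. This separation depended on scaling. With CPM of library totals alone, 2 genes were lower and 4 higher in every library, and the medians became -0.05 and 0.24, with 2.61% of all genes lower and 32.1% higher. With RLE size factors 23 genes were lower and none higher, against 17.9% of all genes lower and 12.7% higher. As a share of unscaled counts, the 36 genes held 5.47%, 5.82% and 6.40% in PBS_LPS libraries 1 to 3 and 5.41%, 5.80% and 5.42% in 4xLPS_LPS, which overlapped. Relative to the median gene the 36 stood at -0.28 log2 units under either scaling. Scaling moves all genes nearly alike and can hardly change this distance, so the second value is no separate check. In absolute share the 36 were not separated.

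The lowest log2 fold change in this comparison belonged to Ctsz, at 2246, 2242 and 2655 CPM in PBS_LPS and 1699.9, 1639.8 and 1548 in 4xLPS_LPS (-0.55 ± 0.19 SE, adjusted p = 0.22 by edgeR's quasi-likelihood test). It was called when only the groups compared were fitted (adjusted p = 0.049) and when both libraries that stood apart were left out (0.033). Cd68 had 1464 ± 92.4 against 1057 ± 42.8 CPM (-0.47 ± 0.22, adjusted p = 0.34), Tfe3 -0.42 ± 0.16 (0.26) and Atp6v1b2 -0.35 ± 0.14 (0.27). Each of these had 4xLPS_LPS libraries below all PBS_LPS libraries. At the other end Ctsf had 0.22 ± 0.25 and Tfeb 0.16 ± 0.20. Stromal markers summed to 2710 to 3340 CPM in PBS_LPS and 4780 to 4950 in 4xLPS_LPS, and macrophage markers to 8510 to 11000 and 6700 to 8160. The part of these cell markers in the lysosomal values was not tested. In the 1xLPS_LPS group, library 3 had the lowest stromal (2840 CPM) and the lowest osteoclast sum (115 CPM) of its group beside its high lysosomal sum.

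**Figure D4:**
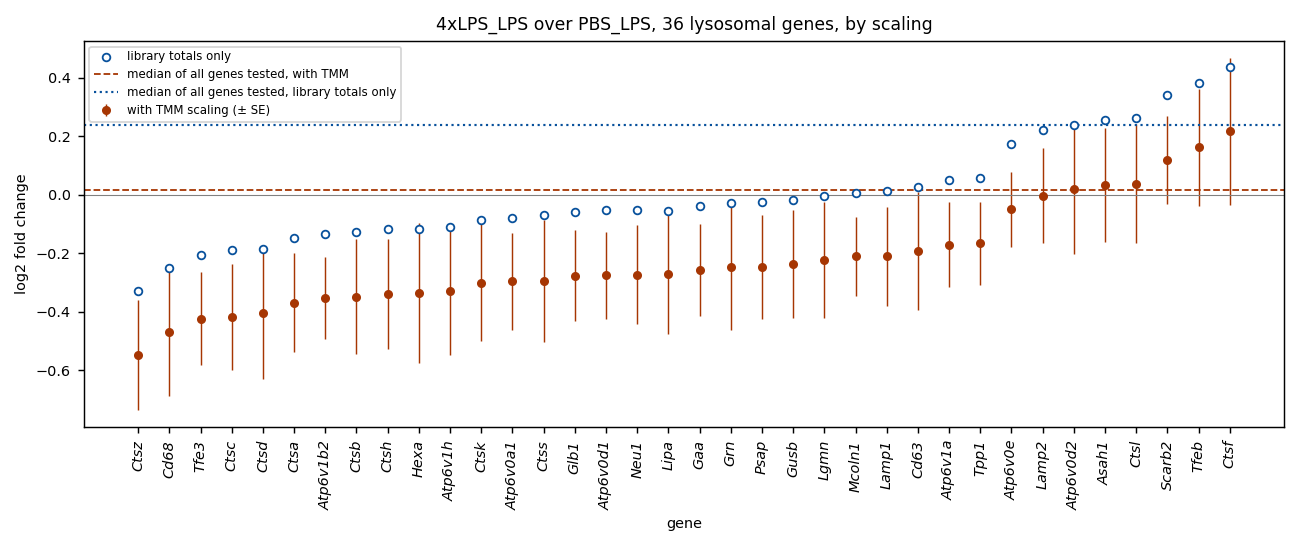
Log2 fold change of 4xLPS_LPS over PBS_LPS (y axis) for the 36 lysosomal genes (x axis, sorted), with TMM scaling (filled, ± SE) and on library totals alone (open), and the median of all 14158 tested genes under each scaling (lines). Both sets lie mostly below their own line, at medians of -0.27 against 0.02 with TMM and -0.05 against 0.24 without it. Scaling moves points and line together, so the second set is no separate check.

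Other genes of the lysosomal pathway, 114 in 6 lists, were measured in the same fits, and 102 passed the filter. In the PBS, 1xLPS and 4xLPS responses 11, 7 and 5 rose and 22, 15 and 21 fell, or 32.4%, 21.6% and 25.5% of the genes against 25.3%, 22.8% and 18.9% over all genes. None was called by edgeR between arms or in a difference of responses (2 to 14 at an unadjusted p under 0.05, or 1.96% to 13.7%, against 2.12% to 13.9% of all genes), where 0.0% to 0.0777% of all genes were called. DESeq2 called Gga1 for 1xLPS against PBS and Gga1 and Tcirg1 for 4xLPS against 1xLPS without stimulation, and Atp6v1e1, Clcn7 and Tfec for 4xLPS against PBS with it. Among those named, Tfec had the largest fold change. Tfec, the macrophage and osteoclast member of the family, rose from 5.87 ± 0.457 CPM in PBS_NO to 161 ± 22.1 in PBS_LPS, from 5.97 ± 1.95 to 103 ± 28.2 in the 1xLPS arm and from 5.27 ± 0.398 to 89.9 ± 14.0 in the 4xLPS arm (SD, n = 3). Its log2 fold changes were 4.78, 4.08 and 4.09, with no overlap. Mitf, the melanocyte and osteoclast regulator, rose by 1.68, 1.80 and 1.71, from 58.1 ± 2.50 to 186 ± 26.5 CPM in the PBS arm. Of the 15 genes in this list, which also holds the nutrient sensors on the lysosomal surface, 2 rose and 3 fell in each arm. Those that fell in the PBS arm were the small GTPase Rragd (-1.27 ± 0.27 SE), Fnip2 (-1.07 ± 0.34), a partner of folliculin, and Lamtor4 (-0.82 ± 0.24), a subunit of the Ragulator complex that anchors the sensors. The PBS call on Fnip2 was not made without PBS_NO library 1 (adjusted p = 0.061), 2 (0.058) or 3 (0.055) or PBS_LPS library 1 (0.1) or 2 (0.054), and that on Lamtor4 not without PBS_NO library 1 (0.077) or PBS_LPS library 2 (0.071).

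Of 26 membrane proteins and transporters outside the 36, 5 rose and 11 fell in the PBS arm, 4 rose and 5 fell in the 1xLPS arm, and 2 rose and 7 fell in the 4xLPS arm. Of all tested genes 14.0%, 12.0% and 10.6% rose and 11.3%, 10.8% and 8.29% fell in these arms. The list's median log2 fold change was -0.40, -0.17 and -0.37 in the same order. The medians of all genes are given above with the LPS responses. The channel Mcoln2, a relative of Mcoln1, rose from 26.3 ± 0.635 CPM in PBS_NO to 160 ± 4.45 in PBS_LPS, with log2 fold changes of 2.60, 2.19 and 2.45 in the PBS, 1xLPS and 4xLPS arms. The amino acid exporter Slc36a1 fell from 147 ± 6.77 to 39.5 ± 1.61 CPM in the PBS arm, with log2 fold changes of -1.89, -1.92 and -1.73 in the same order. The 2-pore cation channels Tpcn1 and Tpcn2 had -1.29 and -0.79 in the PBS arm and both fell there. Slc15a4, a histidine and peptide transporter needed by endosomal Toll-like receptors, rose in all arms (0.68, 0.69 and 0.63). In the PBS arm the chloride exchanger Clcn7 (0.76 ± 0.15) and the cobalamin exporter partner Lmbrd1 (0.44 ± 0.12) rose, while Ostm1, the beta subunit of the Clcn7 exchanger, fell (-0.78 ± 0.15). Lmbrd1 was not called on library totals (adjusted p = 0.21) or with no filter (0.18), and Slc15a4 not in the 1xLPS arm with only the groups compared (0.07).

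Among other luminal proteins 2 of 33 rose and 6 fell in the PBS arm, 1 and 4 in the 1xLPS arm and 1 and 9 in the 4xLPS arm. Over all tested genes 25.3%, 22.8% and 18.9% were called in the same order, which is also the measure for the lists that follow. Sgsh, the sulfamidase of heparan sulfate breakdown, fell from 178 ± 10.8 to 35.1 ± 9.86 CPM in the PBS arm, with -2.33, -2.23 and -2.32 in the PBS, 1xLPS and 4xLPS arms. Its exons overlap Card14 on the opposite strand over 955 bases, so the counts may hold reads of both. Exons of Acp2, Ostm1, Slc15a4, Atp6v1e1 and Atp6v1g2 also overlap a gene on the opposite strand, and Atp6v1f has a near-identical copy. Pla2g15, a lysosomal phospholipase (-1.10 ± 0.23), and Manba, the beta-mannosidase (-0.57 ± 0.14), fell in the PBS arm, and the acid phosphatase Acp2 rose (0.48 ± 0.17). The Acp2 call did not hold on library totals (adjusted p = 0.17), with no filter (0.12), with the replicate number as a block (0.051), or without PBS_NO library 1 (0.06), 2 (0.11) or 3 (0.1), 4xLPS_NO library 3 (0.052) or PBS_LPS library 1 (0.097) or 3 (0.14). The Manba call did not hold with no filter (0.079). Of the 12 other V-ATPase subunits, Atp6v1e1 (0.54 ± 0.13) and Atp6v1f (0.67 ± 0.23) rose and Atp6v1g2 (-1.57 ± 0.51) fell in the PBS arm, and none was called by edgeR in the other arms (1 at an unadjusted p under 0.05 in each). DESeq2 called 1 in each of these, Tcirg1 and Atp6v1c1. On library totals Atp6v1e1 (adjusted p = 0.063) and Atp6v1f (0.11) were not called, nor was Atp6v1e1 with no filter (0.071). Atp6v1f was not called either without PBS_NO library 1 (0.18) or 2 (0.13), PBS_LPS library 1 (0.11), 2 (0.1) or 3 (0.052), 4xLPS_NO library 3 (0.051) or 4xLPS_LPS library 1 (0.051). For Atp6v1g2 this was so without PBS_NO library 2 (0.065) or 3 (0.091) or PBS_LPS library 2 (0.082) or 3 (0.12). Of 13 genes of enzyme sorting, 1 fell in the PBS arm, the adaptor Gga2 (-0.59 ± 0.12), which has a near-identical copy. In the other arms 3 and 2 fell, among them Gga2 and Nagpa, the uncovering enzyme of the mannose 6-phosphate tag (-0.64 ± 0.16 and -0.56 ± 0.16). With no filter Gga2 in the PBS arm (adjusted p = 0.056) and Nagpa in the 1xLPS (0.059) and 4xLPS arms (0.071) were not called, nor was Nagpa in the 1xLPS arm with only the groups compared (0.15). In the 4xLPS arm Nagpa was not called without 4xLPS_NO library 1 (0.11) or 4xLPS_LPS library 1 (0.054), 2 (0.065) or 3 (0.053). Abca2, a lysosomal ABC transporter, fell in the 4xLPS arm (-0.71 ± 0.15). Of the 3 cathepsin inhibitors measured, edgeR and DESeq2 called 0 in every arm, with 0, 0 and 1 at an unadjusted p under 0.05.

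**Figure D5:**
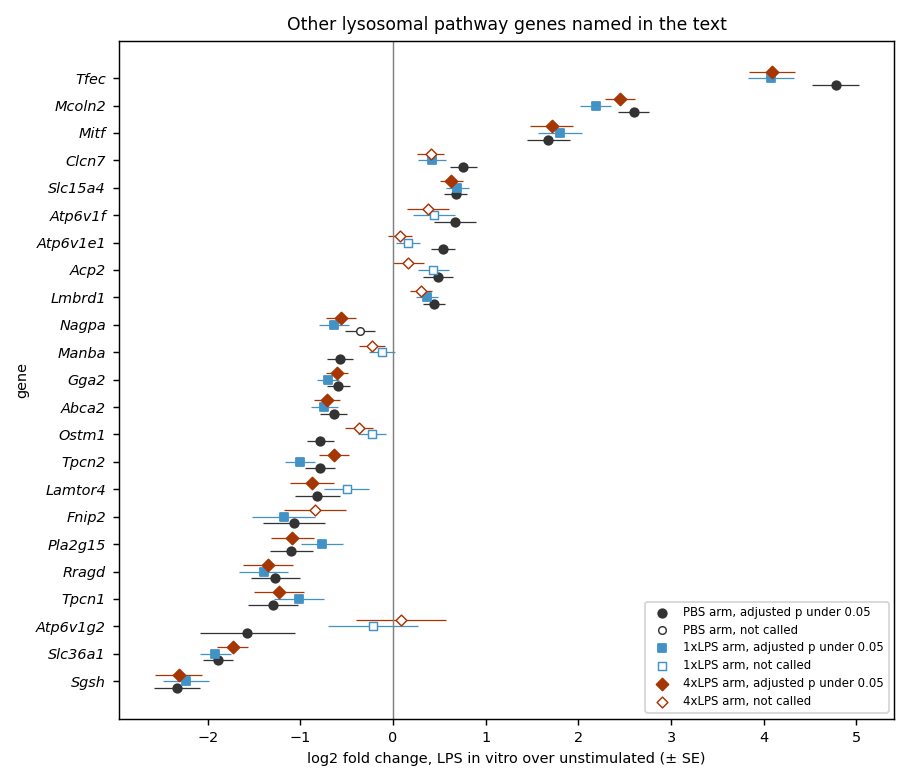
Log2 fold change of LPS-stimulated over unstimulated macrophages (x axis, ± SE) for the other lysosomal pathway genes named in the text (y axis), by in vivo arm and filled where the adjusted p was under 0.05. Tfec (4.78 in the PBS arm), Mcoln2 (2.60) and Mitf (1.68) lie at the high end and Sgsh (-2.33) and Slc36a1 (-1.89) at the low end in all 3 arms.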

How the data were processed

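The deposited table, from a sheet named for RPM, held whole numbers whose sums differ between libraries, so the values were taken as raw read counts per gene as the authors deposited them, with no normalization. A count test was therefore used, as the design foresaw for raw counts. TopHat2, Bowtie2, Cufflinks and build mm10 are named per the submitters' processing notes, and mRNA was purified and sequenced on an Ion Proton per the labels' protocols, which also speak of FPKM from Cufflinks. The sources used here name no counting program, annotation or strand setting. 0 columns were left unused. A second sheet of verdicts in words was not used.

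Genes that reached 1 CPM in 3 or more of 18 libraries were tested. TMM scaling and edgeR's quasi-likelihood test (4.0.16, glmQLFit and glmQLFTest, R 4.3.3) were used in a single fit of all 6 groups without a block, which left 12 residual degrees of freedom. P-values were adjusted by Benjamini-Hochberg over 14158 genes within each of 12 contrasts. DESeq2 (1.42.0) was an alternative. The test was also run on counts simulated from the fitted means, spread and scaling of these data. That run cannot address how calls depend on scaling or on libraries that stand apart, and nothing is drawn from it here. The members, lists and tests were chosen with earlier results of these data known. Values per library are printed for members called in at least 1 contrast. Of the other lists, up to 4 called genes per list and direction were named in the PBS response and up to 2 elsewhere, and values given of genes outside this rule were chosen after they were seen. A few genes meeting the naming rule are not named in the results. The marker Adgre1 was found under its older symbol Emr1. Fold changes printed of an arm other than the one that named a gene are for side-by-side reading. A count of 0 allows 0.0555 to 0.323 CPM in a library (3 counts, counting error only), below every member value. Promoters are RefSeq windows (GRCm38.p6), positions from GENCODE M21, and near-identical copies were taken at 95% identity over 200 bases.

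After subtraction of group means, libraries with the same number correlated over 0.1 for each of the 3 numbers only between PBS_NO and 4xLPS_NO (0.604, 0.205 and 0.385). No label explains the numbers. In that comparison 0 members were called with and without the number as a block.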

Additional observations from a re-analysis of the deposited data

How the results depend on the processing

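Over 22 calls on the 36 genes and 25 alternatives each (550 values), 446 kept the call, 104 fell short of the threshold with the same direction, and none turned direction. For the 49 calls that the naming rule took from the other lists, 1176 of 1225 values kept the call and 49 fell short. The number of the 36 genes called in the PBS, 1xLPS and 4xLPS responses was 8, 5 and 9. On library totals alone it was 17 and 11 in the PBS and 1xLPS arms, with no filter on low counts 4 and 2, and with only the groups compared 0 in the 1xLPS arm and 23 in the 4xLPS arm. DESeq2 called 15 in the 4xLPS arm. Without both libraries that stood apart it was 15, 15 and 21. With 1 library left out it ranged from 4 to 15, from 0 to 13 and from 3 to 19. The share of all genes called also changed with the setting, as given above for library totals and for removal of 1xLPS_LPS library 3. For the other settings that share is not given here, so their counts cannot be set against it. These counts alone are therefore no result about the 36 genes. Counts with the replicate number as a block were 8, 5 and 10 (in the PBS arm Atp6v0e was lost with an adjusted p of 0.055 and Gusb gained with 0.048, and in the 4xLPS arm Tfe3 was gained). The number is shared by the libraries, and nothing shows that it pairs them in these responses.

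Between arms no gene of the 36 was called. DESeq2 called 1 for 1xLPS against PBS without stimulation, and leaving out 1 library gave 0 to 3 there and 0 to 3 for 4xLPS against 1xLPS. For 4xLPS against PBS after LPS in vitro, 1 gene was called with only the groups compared and 1 without both libraries that stood apart. The count of 21 genes lower in every 4xLPS_LPS than in every PBS_LPS library was 2 on library totals and 23 with RLE size factors, alternatives chosen after seeing the data. The cause of these shifts was not tested. The depth of 9296453 to 54050622 counts put every member above the floor of 3 counts in each library, and the number of libraries sets the precision.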
